A study of Homo sapiens with 6 samples.

Results

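XG, its paralogs CD99 and CD99L2, and the adjoining glycogenin gene GYG2 were followed in XG knockout and wildtype cells of TC-71, a human line of Ewing sarcoma, a tumour of bone and soft tissue. The members were the rows of the count table that carry these gene names, 4 of 60617 genes once the chromosome Y copies of pseudoautosomal genes were set aside, and all 4 were among the 14425 genes with enough reads to be tested. Polyadenylated RNA was sequenced from 3 libraries of XG knockout cells and 3 libraries of wildtype cells. All 6 came from untreated cells grown in the same serum-containing medium. The labels do not give the knockout method, the part of XG targeted, or whether these cells came from 1 clone or from many, and nothing says that the replicates were separate cultures, so the p-values speak only of the spread among these libraries, and that spread may be technical.

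XG, CD99 and CD99L2 form a small family of single-pass membrane glycoproteins with heavily O-glycosylated outer parts. XG carries the Xg blood group antigen. CD99 acts in cell adhesion, in the passage of leukocytes between endothelial cells and in cell death signalling, and its strong membrane staining is used in the diagnosis of Ewing sarcoma. CD99 lies in PAR1, the pseudoautosomal region at the tip of the short arm of the X chromosome, and XG spans the inner border of PAR1. GYG2, just beyond that border, encodes glycogenin-2, a self-glucosylating protein that primes glycogen synthesis.

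On GRCh38, CD99 (ENSG00000002586.20) occupies chromosome X from 2691187 to 2741309, XG (ENSG00000124343.13) from 2752048 to 2816500 and GYG2 (ENSG00000056998.20) from 2828822 to 2882820, all on the plus strand. The gap from CD99 to XG is 10738 bases and that from XG to GYG2 is 12321 bases. CD99L2 (ENSG00000102181.21) lies on the other arm of the chromosome, from 150766336 to 150898816 on the minus strand. Merged over transcripts, the counted exons formed 11 blocks in XG, 15 in CD99, 14 in CD99L2 and 13 in GYG2. The promoters of the 3 adjoining genes are shown because XG is set apart in sequence from both of its neighbours. Each sequence is RefSeq's for GRCh38.p14, plus strand, with every CpG dinucleotide in capitals. It runs from 250 bases before to 50 bases after RefSeq's start of the gene, which differs from the start given above.
CD99 (chrX:2691045-2691344): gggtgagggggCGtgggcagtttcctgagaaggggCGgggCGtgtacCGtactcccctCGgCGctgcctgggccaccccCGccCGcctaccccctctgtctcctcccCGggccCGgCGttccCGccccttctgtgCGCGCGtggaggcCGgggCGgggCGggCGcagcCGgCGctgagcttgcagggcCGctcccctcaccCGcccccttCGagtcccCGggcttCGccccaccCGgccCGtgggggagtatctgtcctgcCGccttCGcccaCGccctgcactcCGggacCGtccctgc
XG (chrX:2751790-2752089): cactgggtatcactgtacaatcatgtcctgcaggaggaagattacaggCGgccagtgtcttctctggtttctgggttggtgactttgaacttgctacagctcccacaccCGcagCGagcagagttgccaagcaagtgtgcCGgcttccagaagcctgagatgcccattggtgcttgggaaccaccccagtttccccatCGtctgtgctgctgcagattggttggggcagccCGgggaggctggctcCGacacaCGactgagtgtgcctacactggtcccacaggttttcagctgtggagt
GYG2 (chrX:2828680-2828979): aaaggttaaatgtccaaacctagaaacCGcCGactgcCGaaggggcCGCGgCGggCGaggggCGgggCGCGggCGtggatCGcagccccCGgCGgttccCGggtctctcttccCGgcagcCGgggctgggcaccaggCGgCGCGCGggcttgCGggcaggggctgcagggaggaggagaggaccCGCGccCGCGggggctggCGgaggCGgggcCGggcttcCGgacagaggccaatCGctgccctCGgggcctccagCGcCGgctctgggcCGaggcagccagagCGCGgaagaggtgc
The XG promoter held 8 CpGs at a GC content of 57.3%, and 39.9% of 27305 promoters of the same length held fewer. CD99 had 33 CpGs and GYG2 had 37, and 83.1% and 88.9% of promoters held fewer than these. The CD99L2 promoter (chrX:150898619-150898918) was as CpG-rich, with 38. On both strands, none of the 4 promoters held AGATAA, the core of a GATA site, found in 10.5% of promoters, nor GGAAGGAA, a tandem ETS core, found in 3.58%. CCAAT was present at 2 places in XG and 1 in GYG2, and in 35.7% of promoters. No value measured here bears on binding at these sequences.

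The deposited counts summed to 22557187 to 31214099 fragments per library. Knockout replicate 3 stood apart from the other knockout libraries. Its chi-square per gene against the wildtype libraries was 2.15 to 2.38, against 4.70 and 4.33 to knockout replicates 1 and 2, and wildtype pairs gave 1.46 to 1.69. In the 20% of tested genes with the highest GC content, the median log2 ratio to the wildtype mean was -0.15, -0.13 and 0.013 in knockout replicates 1, 2 and 3. All 10 Ewing sarcoma markers examined, among them NKX2-2 and NR0B1, were expressed in every library. Their levels summed to 2207 to 2268 CPM (counts scaled to library size) in knockout and 2323 to 2343 CPM in wildtype libraries. Most of each sum came from CCND1 (means of 1358 CPM in knockout and 1417 CPM in wildtype) and EWSR1 (386 and 414 CPM). NKX2-2 averaged 17.2 CPM in knockout and 18.0 CPM in wildtype, and NR0B1 72.1 and 75.6 CPM. None of the 10 markers was called. The smallest p-values were those of EWSR1, CCND1 and LIPI, at log2 fold changes of -0.10, -0.061 and -0.090. Their part in the CD99 result was not tested. Of the blood cell markers, CD3E and HBB had no count in any library, and the list of 8 summed to 0.103 to 0.401 CPM in knockout and 0.230 to 0.267 CPM in wildtype. The 5 epithelial markers summed to 0.069 to 0.411 CPM in knockout and 0.192 to 0.356 CPM in wildtype. Of 5 fibroblast markers, COL1A1, DCN and LUM passed the filter on low counts, and the list summed to 36.0 to 43.5 CPM in knockout and 37.9 to 41.0 CPM in wildtype.

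XG and CD99 were lower in knockout cells, XG by about the same large step in every knockout library and CD99 by a small step, while CD99L2 and GYG2 did not pass the test. A gene was called at a Benjamini-Hochberg adjusted p under 0.05 in edgeR's quasi-likelihood test over all tested genes. Of all tested genes 1.36% were called, 0.915% lower and 0.444% higher. The groups did not overlap in 20.5% of tested genes, with every knockout library under every wildtype library in 9.8%. Of the 4 genes, XG and CD99 were called lower and did not overlap between groups, and CD99L2 and GYG2 were not called and overlapped.

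**Figure D1:**
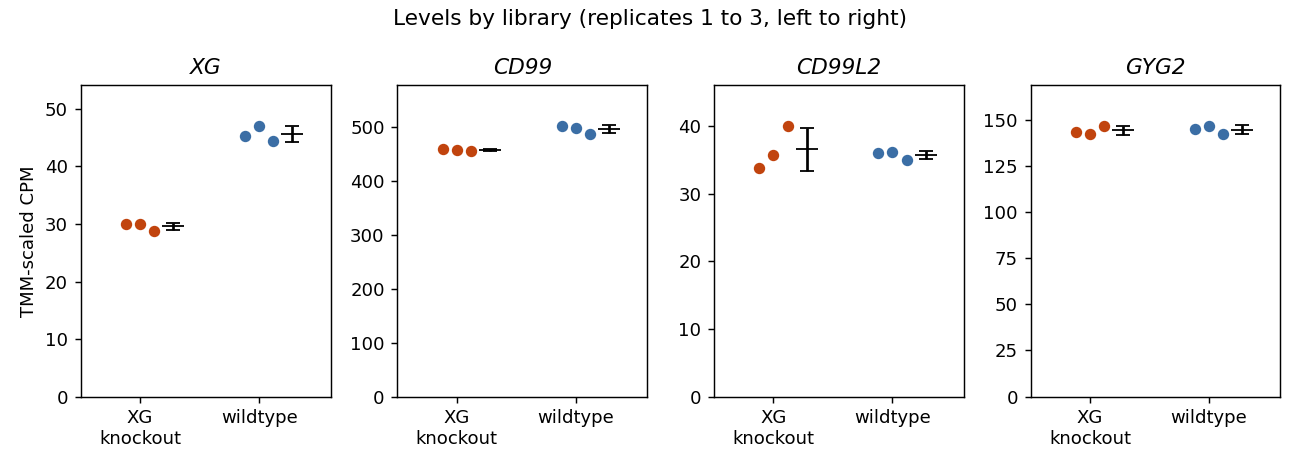
Level of each of the 4 genes in every library, in CPM after TMM scaling (a correction for library composition); points are libraries, and the black bar is the mean ± SD of 3 libraries in XG knockout (left, orange) and wildtype (right, blue). XG libraries sit at 28.8 to 30.0 CPM in knockout and 44.4 to 47.1 CPM in wildtype, CD99 shows a small gap, and CD99L2 and GYG2 overlap.

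XG, the gene named as the target, is the check on the labels. Its counts were 746, 948 and 836 in knockout replicates 1, 2 and 3, and 1254, 1228 and 999 in wildtype replicates 1, 2 and 3. Scaled to library size, XG stood at 29.9, 30.0 and 28.8 CPM in the knockout libraries and at 45.3, 47.1 and 44.4 CPM in the wildtype libraries. The 3 knockout libraries were close to one another and all lay under the lowest wildtype library. As shares of the wildtype mean they were 65.6%, 65.7% and 63.2%, so that the transcript was lower, and present, in each. The XG log2 fold change came to -0.63 (95% confidence interval -0.73 to -0.53, edgeR adjusted p = 1.65e-06), an interval that corresponds to 60.5% to 69.5% of wildtype. Among 14425 tested genes XG ranked 1 by p and 219 by absolute fold change, and among the 132 genes called lower it had the 10th largest fall. The coefficient of variation between libraries was 2.17% in knockout and 2.99% in wildtype, against 3.44% and 2.94% expected from the counting of reads alone. The count is summed over exons and does not show whether the transcript that remains encodes an intact protein. In these bulk libraries, fewer cells with XG RNA and less XG RNA per cell cannot be told apart.

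The XG fall did not rest on the library that stood apart. The log2 ratio of XG to the wildtype mean was -0.61, -0.61 and -0.66 in knockout replicates 1, 2 and 3. With knockout replicate 3 left out the log2 fold change was -0.61, and with knockout replicate 3 as the lone knockout library it was -0.66. The longest annotated XG transcript has a GC content of 41.6%, and a correction for GC content gave -0.66. In the authors' deposited table XG had a log2 fold change of -0.63 with a standard error (SE) of 0.065 and an adjusted p of 4.12e-18. That table does not state its direction, and its fold changes had the sign of knockout over wildtype in all 196 genes called here.

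CD99, the paralog that marks the tumour, was the most abundant of the 4 genes. It had 11463, 14475 and 13186 counts in the knockout libraries and 13903, 12970 and 10965 in the wildtype libraries. In CPM this was 460, 457 and 455 in knockout replicates 1, 2 and 3 and 503, 497 and 487 in wildtype replicates 1, 2 and 3. The highest knockout library was under the lowest wildtype library, and the 3 knockout libraries differed by less than the 3 wildtype libraries. CD99 averaged 92.3% of wildtype, with a log2 fold change of -0.12 (SE 0.0253, 95% confidence interval -0.17 to -0.063, edgeR adjusted p = 0.0302). Of the 132 genes called lower, 130 fell by more than CD99. Its coefficient of variation, 0.576% in knockout and 1.56% in wildtype, stood beside a counting error of 0.876% in knockout and 0.890% in wildtype. In absolute terms the difference was -38.4 CPM for CD99 and -16.0 CPM for XG. The authors' deposited table gave CD99 a log2 fold change of -0.12 and an adjusted p of 0.00385.

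The longest annotated CD99 transcript has a GC content of 56.5%, and the fall has to be read beside the GC shift of knockout replicates 1 and 2. The log2 ratio of CD99 to the wildtype mean was -0.11, -0.12 and -0.12 in knockout replicates 1, 2 and 3. Genes in the same 20% class of GC content had medians of -0.037, -0.048 and -0.0038 in those libraries. With the GC correction CD99 had -0.068 on that scale and was not called (edgeR adjusted p = 0.142). The call was also lost with the replicate number as a block (edgeR adjusted p = 0.111) and without knockout replicate 2 (0.0789). Leaving out wildtype replicate 1 (0.201), 2 (0.191) or 3 (0.115) ended the call as well. The call was kept without knockout replicate 1 (0.0412) and without knockout replicate 3 (0.00184), and the fit of knockout replicate 3 alone gave -0.12. That last fit takes its spread from the wildtype libraries and assumes that a single knockout library varies as they do. Over all alternatives the adjusted p ran from 0.00131 to 0.250.

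**Figure D2:**
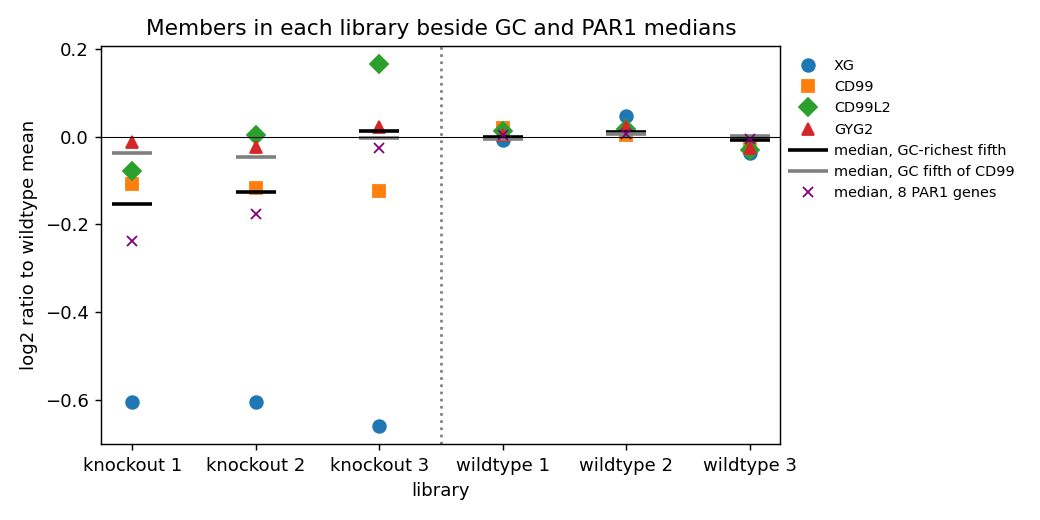
Log2 ratio of each of the 4 genes to the wildtype mean in the 3 knockout libraries (left) and the 3 wildtype libraries (right), with the median of the GC-richest 20% of tested genes (black bar), of the 20% class that holds CD99 (grey bar) and of 8 other PAR1 genes (cross). XG lies near -0.6 and CD99 near -0.12 in all 3 knockout libraries, whereas the GC-richest genes and the PAR1 genes are lower in knockout replicates 1 and 2 than in knockout replicate 3.

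CD99L2, the paralog on the long arm, had the lowest level of the 4 per base of counted exon, merged over transcripts. It was at 33.9, 35.8 and 40.1 CPM in knockout replicates 1, 2 and 3 and at 36.1, 36.2 and 35.0 CPM in wildtype replicates 1, 2 and 3. Knockout replicate 1 was the lowest of the 6 libraries and knockout replicate 3 the highest, so the groups overlapped. The CD99L2 log2 fold change came to 0.034 (95% confidence interval -0.086 to 0.16, edgeR adjusted p = 0.812), and the interval allows 94.2% to 111.4% of wildtype. The coefficient of variation was 8.72% in knockout against a counting error of 3.09%, while in wildtype it was 1.81% against 3.31%. The CD99L2 direction depended on knockout replicate 3. Without that library it came to -0.035 (edgeR adjusted p = 0.728), and with it as the lone knockout library 0.16 (adjusted p = 0.252). In the authors' deposited table the log2 fold change was 0.033, with an adjusted p of 0.883. Of the tested genes next to CD99L2, MTMR1, a phosphoinositide phosphatase, had a log2 fold change of 0.045 and HMGB3, a chromatin protein, of -0.046, and neither was called.

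GYG2, the gene on the far side of XG, was not called, and its fold change had a narrow interval around 0. It was at 143, 142 and 147 CPM in knockout replicates 1, 2 and 3 and at 145, 147 and 142 CPM in wildtype replicates 1, 2 and 3. The groups lay over each other. For GYG2 edgeR gave a log2 fold change of -0.0053 with an SE of 0.0309 (adjusted p = 0.952), and its 95% confidence interval of -0.070 to 0.060 allows 95.3% to 104.2% of wildtype. The authors' deposited table gave -0.0066 for GYG2. GYG2-AS1, the annotated antisense gene within GYG2, had no count in any library, and the counting was strand-specific. GYG1, the paralog that primes glycogen in muscle and most tissues, had 59.0 ± 2.06 CPM in knockout and 55.5 ± 1.52 CPM in wildtype (SD, n = 3), a log2 fold change of 0.088 that was not called (edgeR adjusted p = 0.310).

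Levels of different genes were compared per kilobase of exon, as RPKM computed from the scaled counts. CD99 stood at 94.2 ± 0.542 RPKM in knockout and 102.1 ± 1.59 RPKM in wildtype (SD, n = 3). GYG2 followed at 39.8 ± 0.644 RPKM in knockout and 39.9 ± 0.643 RPKM in wildtype. XG stood at 8.83 ± 0.192 RPKM in knockout and 13.6 ± 0.407 RPKM in wildtype, and CD99L2 at 6.35 ± 0.554 RPKM in knockout and 6.21 ± 0.112 RPKM in wildtype. By RPKM this order was the same in both groups, and the ranges of neighbours in it over all 6 libraries did not overlap. On that scale XG was 1.39 times as high as CD99L2 in knockout and 2.19 times as high in wildtype. The order depends on the length used, which was merged over transcripts: 4858 bases for CD99, 3621 for GYG2, 3349 for XG and 5763 for CD99L2. The longest coding transcripts of GENCODE 29 have 1291, 3393, 2931 and 3742 bases. Which transcripts were present was not measured. In CPM, XG averaged 29.6 and CD99L2 36.6 in knockout, and 45.6 and 35.8 in wildtype. Among all tested genes ranked by RPKM, XG stood at the 66.1 percentile in knockout and the 76.0 percentile in wildtype, while CD99 stayed at the 97.2 percentile in knockout and the 97.4 percentile in wildtype.

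Ratios of counts within a library do not depend on the scaling. XG counts were 6.51%, 6.55% and 6.34% of CD99 counts in knockout replicates 1, 2 and 3 and 9.02%, 9.47% and 9.11% in wildtype replicates 1, 2 and 3. The difference in the XG to CD99 log2 ratio, knockout minus wildtype, was -0.51, and every knockout library lay under every wildtype library. Against GYG2, XG counts were 20.9%, 21.0% and 19.6% in the knockout libraries and 31.3%, 32.1% and 31.2% in the wildtype libraries, a log2 difference of -0.62. The CD99 to CD99L2 log2 ratio was 3.65 ± 0.132 in knockout and 3.79 ± 0.0111 in wildtype (SD, n = 3). Its difference was -0.15, and -0.074 without knockout replicate 3. None of these groups overlapped, and each two-sided exact permutation p was 0.10, the smallest that 3 against 3 libraries can give.

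The region around XG was then read gene by gene. Of 14 further PAR1 genes, 8 were tested, 2 were called lower and none higher by edgeR, where 0.915% of all tested genes were called lower. By limma voom 2 of the 8 were called lower, and by DESeq2 none was called. In edgeR 4 of the 8 had an unadjusted p under 0.05, against 16.8% of all tested genes. The groups did not overlap in 3 of the 8, against 20.5% of all tested genes. Of the 8 fold changes 7 were negative and 1 was positive. The median log2 fold change of the 8 was -0.14, against 0.0019 over all tested genes. The called genes were GTPBP6, a mitochondrial GTPase of ribosome recycling, and SLC25A6, an ADP/ATP carrier of the inner mitochondrial membrane. GTPBP6 was at 53.9, 55.1 and 68.5 CPM in knockout replicates 1, 2 and 3 and at 73.4, 73.7 and 71.1 CPM in wildtype replicates 1, 2 and 3 (log2 fold change -0.30, edgeR adjusted p = 0.0302). SLC25A6 stood at 578, 569 and 690 CPM in the knockout libraries and at 704, 730 and 693 CPM in the wildtype libraries (log2 fold change -0.21, edgeR adjusted p = 0.0411). In both genes knockout replicate 3 lay just under the wildtype libraries and the other knockout libraries far under them. AKAP17A, a splicing regulator, had the next smallest p of the list, at a log2 fold change of -0.14 that was not called (edgeR adjusted p = 0.152).

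The medians of the 8 PAR1 genes by library were -0.24, -0.18 and -0.025 in knockout replicates 1, 2 and 3 as log2 ratios to the wildtype mean, and their median GC content was 60.2%. In knockout replicate 3 the same ratio was -0.66 for XG and -0.12 for CD99. With the GC correction 2 of the 8 PAR1 genes were called lower. No PAR1 gene of the list was called without knockout replicate 1, without knockout replicate 2, without any 1 wildtype library or with knockout replicate 3 alone, and 5 were called lower without knockout replicate 3. Nearest to CD99 on its outer side, the pseudogene CD99P1 had 155, 184 and 171 counts in knockout and 145, 133 and 127 counts in wildtype. It stood at 5.98 ± 0.215 CPM in knockout and 5.33 ± 0.283 CPM in wildtype (SD, n = 3). Every knockout library was above every wildtype library, and groups did not overlap in 20.5% of all tested genes. CD99P1 was not called (log2 fold change 0.17, edgeR adjusted p = 0.447) and was not among the listed PAR1 genes. CD99P1 resembles CD99 in sequence, and the counting command set no option to count fragments that map to both. Both rows may therefore lack shared fragments, and their levels are uncertain to that extent.

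Beyond GYG2 on the short arm, 2 of 7 listed genes were tested and neither was called by edgeR, DESeq2 or limma voom, with 0 at an unadjusted p under 0.05. PRKX, a cAMP-dependent protein kinase, and NLGN4X, a synaptic adhesion protein, had log2 fold changes of 0.036 and 0.0095. The arylsulfatase gene ARSD had 52 counts in all 6 libraries together, and 3 genes (ARSL, ARSH and ARSF) had none.

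**Figure D3:**
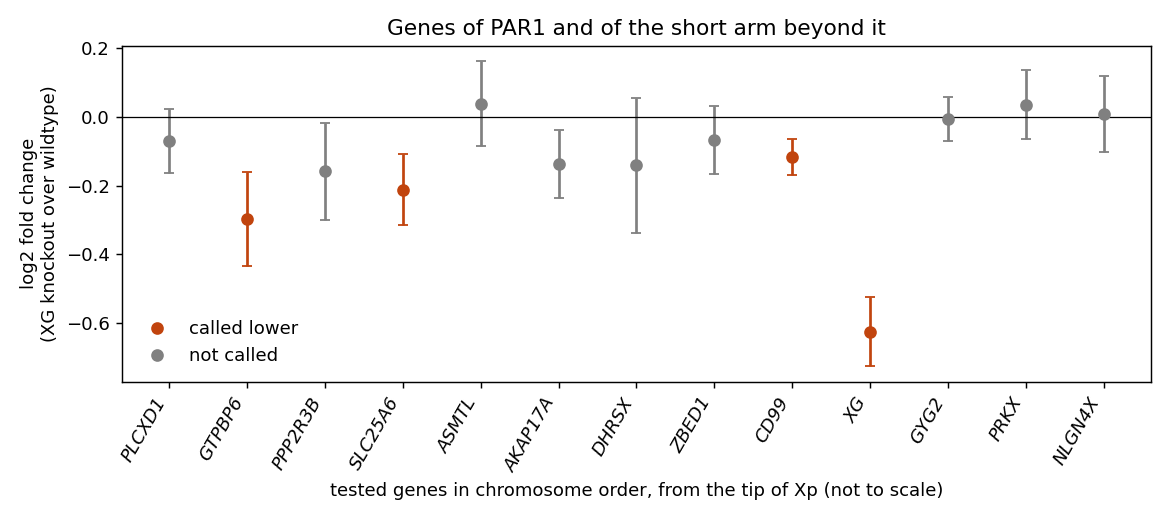
Log2 fold change of XG knockout over wildtype, with 95% confidence interval, for each tested gene of the lists of PAR1 and of the short arm beyond it, together with CD99, XG and GYG2, in chromosome order and not to scale. XG has the largest fall, at -0.63, and GYG2, PRKX and NLGN4X on its inner side lie near 0.

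Partners of the CD99 family were read from a list of CD99 ligands, signalling proteins and junction proteins of leukocyte passage. Of 14 genes 9 were tested and 0 were called by edgeR, DESeq2 or limma voom, and the median log2 fold change was 0.032. An unadjusted p under 0.05 was found for 3 of the 9, against 16.8% of all tested genes. The groups did not overlap in 4 of the 9, against 20.5% of all tested genes. PILRA, a receptor that binds CD99, was near the detection limit, at 0.241, 0.758 and 0.379 CPM in knockout and 0.651, 0.268 and 0.711 CPM in wildtype replicates. The 3 smallest p-values were those of F11R and JAM3, junctional adhesion molecules, and EZR, the membrane linker ezrin, at log2 fold changes of 0.30, 0.11 and -0.069. F11R stood at 8.15, 6.32 and 6.86 CPM in knockout and at 5.13, 6.06 and 6.05 CPM in wildtype replicates. These 3 did not pass the test (edgeR adjusted p = 0.185, 0.205 and 0.243). PECAM1, VCAM1, CDH5 and ICAM2, genes of endothelium, had 0 to 11 counts over all libraries.

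Enzymes that build the O-linked sugars of such glycoproteins showed no called member. Of 27 genes 17 were tested, and 0 were called by edgeR, DESeq2 or limma voom, with a median log2 fold change of -0.014. In edgeR 1 of the 17 had an unadjusted p under 0.05 (16.8% over all tested genes). The groups did not overlap in 4 of the 17 (20.5% over all tested genes). GALNT14, which adds the first sugar, had 45.2 CPM in knockout and 48.9 CPM in wildtype on average (log2 fold change -0.12, edgeR adjusted p = 0.206). C1GALT1C1, the chaperone of the core 1 synthase, and GALNT12, another first-step transferase, had the next smallest p-values, with log2 fold changes of 0.14 and -0.21, and were not called.

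Other protein carriers of blood groups ranged from undetected to abundant in this line. Of 29 genes 13 were tested, and 5 had no count at all. By edgeR and limma voom 0 were called, and by DESeq2 1 was called lower. An unadjusted p under 0.05 in edgeR was found for 3 of the 13, against 16.8% of all tested genes. The groups did not overlap in 1 of the 13, against 20.5% of all tested genes. BSG, the basigin gene, was at 820, 795 and 918 CPM in knockout replicates 1, 2 and 3 and at 922, 962 and 917 CPM in wildtype replicates 1, 2 and 3 (log2 fold change -0.14, edgeR adjusted p = 0.0737). Its knockout replicate 3 lay among the wildtype libraries, and its GC content is 61.6%. ERMAP and PRNP, the carriers next in p, had log2 fold changes of 0.28 and -0.070 and were not called.

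Genes of glycogen metabolism gave the pathway around GYG2. Of 26 genes 19 were tested and 0 were called by edgeR, DESeq2 or limma voom, with a median log2 fold change of 0.019. In the list 5 had an unadjusted p under 0.05, against 16.8% of all tested genes, and 6 did not overlap between groups, against 20.5% of all tested genes. PYGL, the liver glycogen phosphorylase, stood at 85.8, 87.9 and 90.0 CPM in knockout and at 81.9, 77.0 and 80.4 CPM in wildtype replicates (log2 fold change 0.14, edgeR adjusted p = 0.0682). PGM1, which interconverts glucose phosphates, stood at 44.2, 43.2 and 47.6 CPM in knockout and at 40.2, 40.5 and 37.5 CPM in wildtype replicates (log2 fold change 0.19, edgeR adjusted p = 0.0706). PYGB, the brain phosphorylase, stood at 90.2, 87.3 and 92.2 CPM in knockout and at 98.7, 99.5 and 96.4 CPM in wildtype replicates (log2 fold change -0.13, edgeR adjusted p = 0.0808). The groups did not overlap in these 3 genes, and none passed the adjusted threshold. Without knockout replicate 3, 6 genes of the list passed, 4 higher and 2 lower, and with the GC correction 2 passed, both higher.

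**Figure D4:**
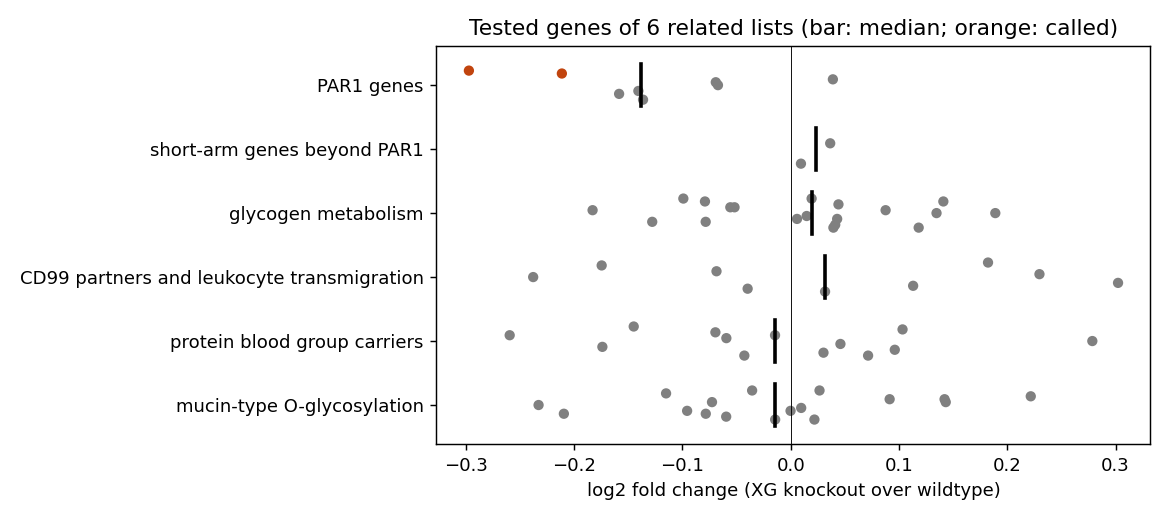
Log2 fold change of XG knockout over wildtype for every tested gene of 6 related lists; each point is a gene, the black bar is the list's median and orange points are called genes. The 2 called genes, GTPBP6 and SLC25A6, are PAR1 genes, and the other lists centre near 0.

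The genes whose levels tracked XG most closely were found by Pearson correlation of log2 CPM over the 6 libraries, among 10001 protein-coding genes with a mean of at least 5 CPM. They were CYFIP2, a subunit of the actin-regulating WAVE complex (r = 0.994), ZBTB9 (r = 0.994), FTSJ3, a ribosomal RNA methyltransferase (r = 0.992), CRMP1, a semaphorin signalling protein of neurons (r = 0.990), and CPS1, a urea cycle enzyme (r = 0.990). CYFIP2 averaged 17.1 ± 0.188 CPM in knockout and 20.4 ± 0.453 CPM in wildtype (SD, n = 3), a log2 fold change of -0.25 (edgeR adjusted p = 0.0406). The other 4 had log2 fold changes of -0.096, -0.089, -0.17 and -0.14 and were not called. For CD99 the closest were KIRREL1, an adhesion protein (r = 0.994), B3GALNT1, the globoside synthase (r = 0.992), and MRTO4, a ribosome assembly factor (r = 0.990). XG and CD99 had r = 0.981 with each other, and XG had r = 0.14 with GYG2 and -0.24 with CD99L2. The 6 points share their libraries and fall into 2 groups of 3, so the gap between groups enters each r, and the values are a description.

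**Figure D5:**
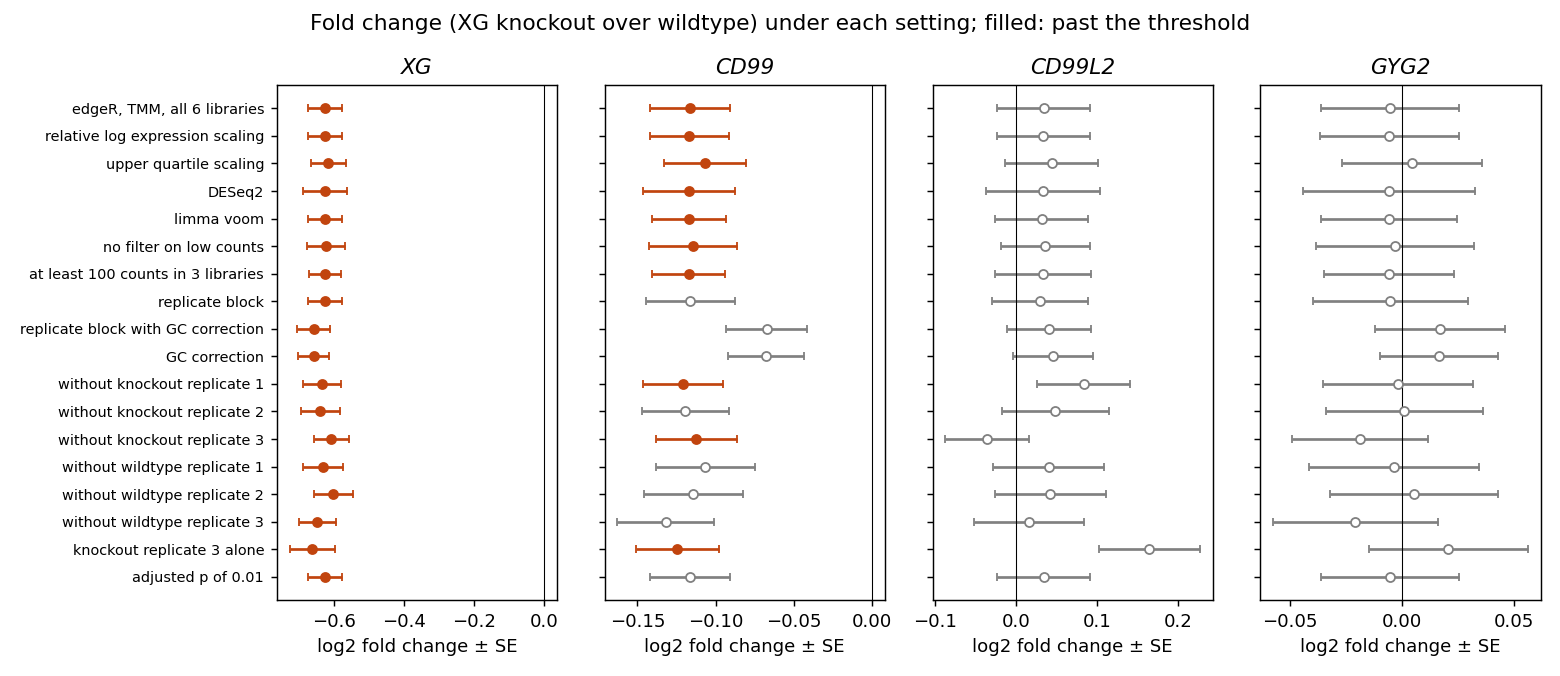
Log2 fold change of XG knockout over wildtype ± SE for the 4 genes under each setting of scaling, test, filter and libraries used, with a scale of its own per gene; filled points are past the threshold of that setting. XG is past it in every setting, at -0.66 to -0.60, CD99 in some, and CD99L2 and GYG2 in none.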

How the data were processed

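RNA of 3 XG knockout and 3 wildtype libraries was sequenced after a stranded mRNA library preparation, per the labels' protocols. Per the submitters' processing notes, reads were aligned with STAR 2.7.6a on GRCh38. Per the file headers, the authors made the deposited fragment counts with featureCounts of Subread 2.0.1, over exons of GENCODE 33 genes, reverse-stranded and paired, with no option for multi-mapping reads. The 45 rows for chromosome Y copies, each with 0 counts, were dropped. The authors' deposited log2 fold changes, p-values, scores (the Wald statistic) and mean signal (normalized counts) come from DESeq2 1.38.3, per the submitters' processing notes, and are used only where named.

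Genes were filtered with filterByExpr (minimum count 10, minimum total 15), which kept 99.9% of counts, scaled by TMM and tested with edgeR 4.0.16 in R 4.3.3 (glmQLFit, glmQLFTest, two-sided, group as the only term). SEs and confidence intervals were derived from the F statistic of each fold change. Library totals set the depth and so the precision of each value, and intervals cover no biological replication beyond these libraries. GC correction removed a lowess trend (span 0.5) of log2 CPM (prior count 2) on the GC content of the longest GENCODE 29 transcript, known for 99.5% of tested genes. The scripts were tested on simulated data. Alternatives were 2 other scalings, DESeq2 1.42.0, limma 3.58.1 with voom, 2 other filters, the replicate number as a block, GC correction, leaving out libraries and a threshold of 0.01. No pair of replicates agreed within sampling noise.

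The members and lists were chosen with earlier results of these data known. Genes were named by rule: the 4 members, called genes and the 3 smallest p-values of each list, related rows, tested neighbours, and the genes most correlated with XG (5) and CD99 (3); other genes were named after their values were seen. Values of some listed genes are not reported here.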

Additional observations from a re-analysis of the deposited data

How the results depend on the processing

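Each of the 4 genes was refitted under 17 alternatives. XG was called lower in all 17, with log2 fold changes of -0.66 to -0.60. CD99 was lower in all 17 and lost its call in 8: with the replicate block (-0.12, edgeR adjusted p = 0.111), with GC correction (-0.068), with both (-0.067, adjusted p = 0.250), at the 0.01 threshold (-0.12) and without any of 4 single libraries, the cause not being tested. Without 1 library its log2 fold change ran from -0.13 to -0.11. GYG2 changed sign, near 0, with upper quartile scaling (0.0045), GC correction (0.017), GC correction with the block (0.017) and knockout replicate 3 alone (0.021), and ran from -0.021 to 0.0052 without 1 library. CD99L2 ran from -0.035 to 0.084 without 1 library.

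The count of called genes over the table, 196, became 647 with no filter on low counts, 37 with the replicate block, 339 with GC correction, 125 with knockout replicate 3 alone and 33 at the 0.01 threshold. It ran from 18 (without wildtype replicate 3) to 1851 (without knockout replicate 3) when 1 library was left out, with 67 and 41 without knockout replicates 1 and 2, and 24 and 26 without wildtype replicates 1 and 2. The 2 calls among PAR1 genes became 0 with DESeq2, at least 100 counts in 3 libraries, the replicate block, knockout replicate 3 alone and the 0.01 threshold, and 1 with the block and GC correction, with 0 to 5 without 1 library. The 0 calls in glycogen metabolism became 2 with no filter, GC correction or knockout replicate 3 alone, 1 with the block and GC correction, and 0 to 6 without 1 library. The blood group carriers had 1 with DESeq2 or no filter and 0 to 1 without 1 library, as had the CD99 partners and the O-glycosylation enzymes (0 to 1).

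Correlations between same-numbered libraries of the groups, in deviations from the group mean, were -0.046, -0.024 and -0.051 for replicates 1, 2 and 3. Deviations within 3 libraries per group are not independent, so these values cannot decide whether same-numbered libraries were paired. The labels do not state a pairing. Of the calls among the 4 genes, the block changed only that of CD99. Ratios within libraries kept their sign in all 8 alternatives each, with the block included (XG to CD99 -0.51). Depth limits the least abundant genes, such as PILRA, most.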
